A study of Mus musculus with 6 samples.

Results

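Intraflagellar transport and BBSome genes encode the machinery that carries building blocks and membrane proteins along the ciliary axoneme. The genes were taken by symbol from the count table, as every *Ift* and *Bbs* gene with a number and a fixed list of further train subunits, transport motors, chaperonin-like Bardet-Biedl genes and the regulator *Lztfl1*. The rule found 36 of the 20483 genes in the table, and it used no measured value. They comprised 7 genes of the IFT-B core, 6 of peripheral IFT-B, 6 of IFT-A, 4 of kinesin-2, 2 of dynein-2, 7 of the BBSome, 3 chaperonin-like genes and 1 regulator.

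Intraflagellar transport trains are built from the IFT-B and IFT-A complexes. Kinesin-2 moves the trains toward the ciliary tip and dynein-2 returns them to the base. The BBSome is an adaptor that links membrane proteins to the trains, and its assembly needs chaperonin-like proteins. Multiciliated cells of the airway build many motile cilia at once, whereas other epithelial cells may carry a single primary cilium that uses the same transport.

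Primary tracheal epithelial cells of C57BL/6 mice, 12 weeks old, were grown at air-liquid interface and profiled by droplet single-cell RNA-Seq, with 3 *WT/WT* and 3 *MIS/MIS* mice. *MIS/MIS* mice were homozygous for a germline C498F missense substitution, introduced by CRISPR-Cas9 with a synonymous change nearby, in *Dnaaf5*, which encodes an assembly factor of axonemal dynein motors. Their *WT/WT* littermates carried no edited allele. Each library came from a culture of 1 mouse, and the age, tissue and strain were the same in both genotypes. The authors sorted 23871 cells into 16 named clusters, of which the 4 multiciliated, 2 secretory and 8 basal clusters were each summed per mouse.

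Per mouse, the sums held between 13525483 and 53211600 unique molecular identifiers (UMIs) in multiciliated cells, from 332 to 2155 cells. The 8 fixed markers of multiciliated cells, among them *Foxj1* and *Tekt1*, summed to between 4343 and 5580 counts per 1000000 UMIs (CPM) in multiciliated cells, between 29.9 and 63.4 in secretory cells and between 23.7 and 52.9 in basal cells. The highest value in both of the latter cell types belonged to *MIS/MIS* mouse MT1383. Of 23804 distinct cell barcodes, 67 occurred in more than 1 library. More than 7500 genes were detected in 655 cells (2.74%), although the methods state that limit as a filter for doublets, and all were kept here. Values below are in the order *WT/WT* mice 1, 2 and 3, then *MIS/MIS* mice MT1301, MT1306 and MT1383. Levels are compared within a gene, across cells and mice. Between genes, mean CPM served to choose which gene of each role is shown.

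RefSeq promoters were searched for the X-box, the palindrome bound by RFX factors, which are known regulators of cilium genes. Of the 36 genes, 32 had an entry in the RefSeq promoter table (build GRCm38.p6), spanning 250 bases before and 50 after the start. *Ift80*, *Ift81*, *Ift122* and *Dync2li1* had none. The motif searched was GTTNCC, then 0 to 3 bases, then GGNAAC, which reads the same on both strands. An exact match was found for *Bbs7*, *Ift57* and *Lztfl1*, or 9.38% of the 32 genes. This compares with 0.936% of all 27025 gene symbols with an entry, and with 0.804% of all 32851 promoters. With up to 1 mismatch at the 10 fixed letters, *Ift22*, *Ift52*, *Kif17*, *Bbs1* and *Bbs4* also matched. This made 8 genes or 25%, against 6.15% of all gene symbols and 5.44% of all promoters. Sequence is shown for the genes with an exact match, and for *Ift22* among those with 1 mismatch. The sequences below run 5′ to 3′ on the strand of the gene, with the letters that match the motif in capitals.
Bbs7, minus strand, chr3:36613478-36613550: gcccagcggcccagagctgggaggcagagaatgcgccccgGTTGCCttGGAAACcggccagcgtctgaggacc
Lztfl1, minus strand, chr9:123717735-123717829: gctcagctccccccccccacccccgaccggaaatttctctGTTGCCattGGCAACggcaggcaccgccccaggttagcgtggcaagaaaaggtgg
Ift57, plus strand, chr16:49699227-49699253: ccctgcgGTTGCCtGGTAACggtgggg
Ift22, plus strand, chr5:136908077-136908149: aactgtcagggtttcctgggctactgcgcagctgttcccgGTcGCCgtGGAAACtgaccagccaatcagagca

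The exact matches shown began at position -121 from the RefSeq start of *Bbs7*, -164 in *Lztfl1* and -60 in *Ift57*. The *Ift57* match lies inside the gene as GENCODE M21 annotates it, which starts further upstream. *Lztfl1* had another exact match at position 6 after the start, and *Ift57* a further near match at -87. *Ift22* had a pair of near matches, at -63 and -33, of which the one at -33 is shown with its mismatch in lower case. The single half-site GTTGCC, on either strand and counting those inside an X-box, was present for 14 of the 32 genes (43.8%). It was present for 14.1% of all gene symbols and in 12.5% of all promoters. Of the 4 genes with the highest ratios of multiciliated over secretory cells, described next, *Traf3ip1*, *Ift172* and *Dync2h1* had the half-site without the full motif. *Ift74* had neither. The median log2 ratio was 2.51 for the 8 genes with the X-box at up to 1 mismatch and 2.59 for the 24 without. It was 2.81 for the 14 genes with the half-site and 1.86 for the 18 without. A link between motif and expression was not tested.

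The transport genes were higher in multiciliated cells than in secretory and basal cells, with 1 exception. For 35 of the 36 genes, the lowest of the 6 mice in multiciliated cells was above the highest in secretory cells, and the same held against basal cells. Of the 14762 genes tested in multiciliated or secretory cells, 45.1% were above secretory cells in this way. No share of all genes is given for the order against basal cells, so that count has no background. Per gene, the median over mice of the log2 ratio of CPM + 1 in multiciliated over secretory cells had a median of 2.59 over the 36 genes and 0.28 over all genes tested. The 18 transition zone genes, which build the gate at the ciliary base, had a median ratio of 2.57, and the 18 axonemal dynein genes, which encode the motors of ciliary beating, 4.82. The cells were named from expression in these same libraries, so these ratios are descriptions without a test. All 36 genes passed the low-count filter in multiciliated cells and 35 in secretory cells. *Kif17*, with between 0 and 11 UMIs per mouse in secretory cells, passed through multiciliated cells alone.

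**Figure D1:**
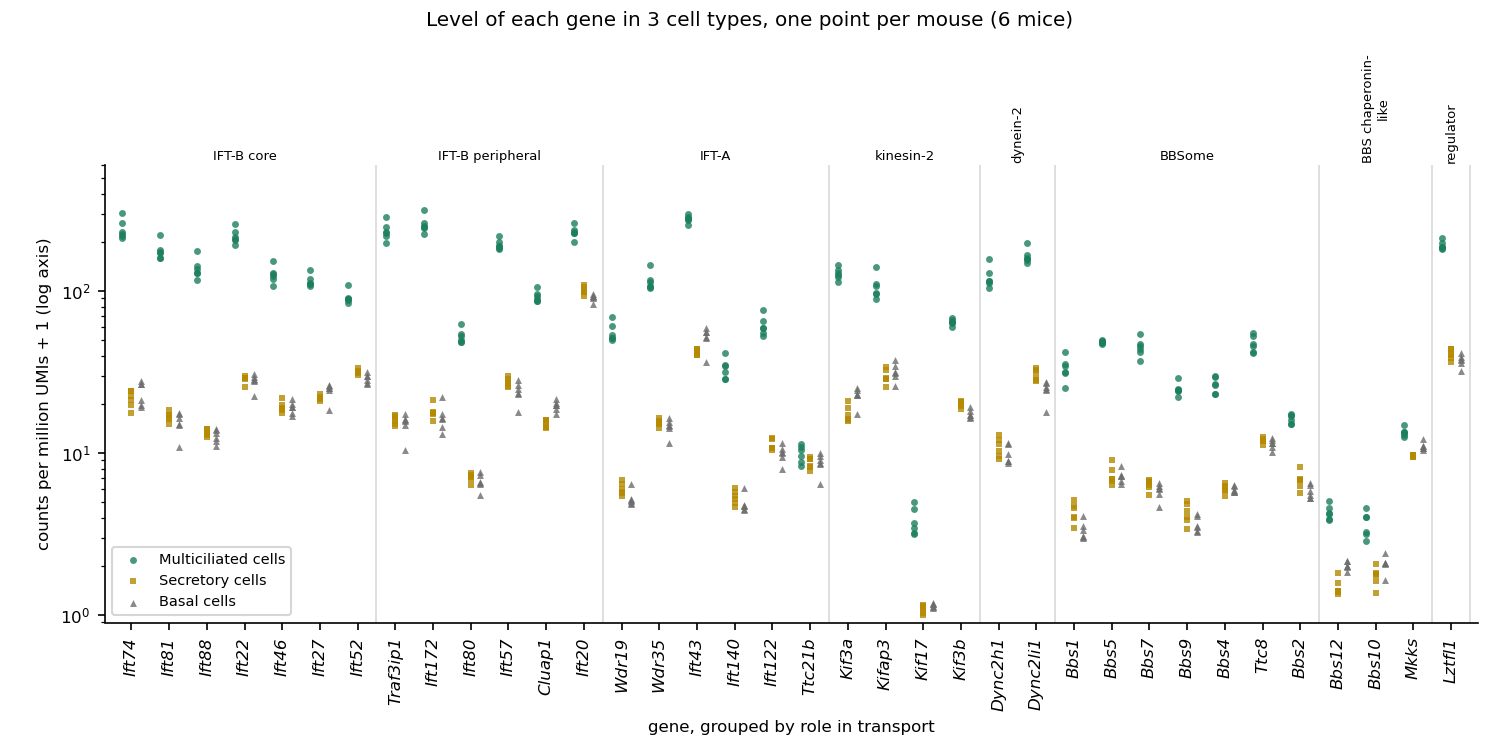
Level of each of the 36 genes (CPM + 1, log axis) in multiciliated, secretory and basal cells, 1 point per mouse, grouped by role. Multiciliated cells lie above both other cell types in all 6 mice for every gene but *Ttc21b*.

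In peripheral IFT-B, *Traf3ip1*, which encodes IFT54, had the highest ratio of all 36 genes (log2 ratio 3.86). Its multiciliated levels were 198, 226, 217, 248, 284 and 229 CPM, against 13.7 to 16.2 CPM in secretory cells. *Ift172*, a subunit needed for turnaround of the train at the tip, had 251, 223, 245, 249, 315 and 263 CPM, against 14.9 to 20.1 CPM (log2 ratio 3.83). For both genes, every multiciliated value was more than 10 times the highest secretory one. The other genes of this group ranged down to *Ift20* (1.22), whose protein also resides at the Golgi, with *Ift80* at 2.83, *Ift57* at 2.81 and *Cluap1* at 2.59. *Ift20* had 201, 264, 228, 237, 228 and 229 CPM in multiciliated cells and 92.2 to 108 CPM in secretory cells. The cell types did not overlap, although every secretory value was above 90 CPM.

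In the IFT-B core, *Ift74*, which forms a tubulin-binding module with *Ift81*, had 212, 223, 262, 217, 303 and 232 CPM in multiciliated cells and 16.8 to 23.3 CPM in secretory cells (log2 ratio 3.44). *Ift81* had a ratio of 3.40, *Ift88* of 3.34, the small GTPase gene *Ift22* of 2.90, *Ift46* of 2.73, the small GTPase gene *Ift27* of 2.36 and *Ift52* of 1.51. The lowest of these 7 ratios thus belonged to *Ift52*, with 29.2 to 32.7 CPM in secretory cells and 82.9 to 108 CPM in multiciliated cells.

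In IFT-A, 5 of the 6 genes had ratios between 2.44 and 3.22. *Wdr19*, which encodes IFT144, was at 3.22, *Wdr35* at 2.80, *Ift43* at 2.72, *Ift140* at 2.59 and *Ift122* at 2.44. *Ift43* had 256, 287, 272, 280, 299 and 279 CPM in multiciliated cells, and its secretory range was 39.5 to 43.2 CPM. *Ttc21b*, which encodes IFT139, stood apart with a ratio of 0.25, close to the median of all genes. Its multiciliated levels were 7.76, 7.32, 9.49, 8.56, 9.86 and 10.4 CPM, and its secretory levels were 8.44, 7.198, 8.16, 6.76, 7.32 and 8.22 CPM. The cell types overlapped, and TMM scaling lowered such ratios by a median of 0.35, which is more than the ratio of *Ttc21b*. Its paralog *Ttc21a*, looked up after this value was seen, had 44.4 to 74.4 CPM in multiciliated cells and 0.277 to 0.755 CPM in secretory cells (log2 ratio 5.21).

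Among the motors, the dynein-2 heavy chain gene *Dync2h1* had 112, 104, 115, 115, 156 and 128 CPM in multiciliated cells, against 8.22 to 12.0 CPM in secretory cells (log2 ratio 3.51). *Dync2li1*, the light intermediate chain, had 155, 147, 166, 157, 197 and 160 CPM, against 26.7 to 32.5 CPM (log2 ratio 2.42). Of the kinesin-2 genes, the motor subunit *Kif3a* had the highest ratio (2.86), with 121, 128, 135, 125, 143 and 113 CPM in multiciliated cells and 14.9 to 20.02 CPM in secretory cells. Its partner motor *Kif3b* was at 1.69 and the accessory subunit *Kifap3* at 1.83. *Kif17*, the homodimeric kinesin-2, was low everywhere, at 2.22, 2.42, 2.18, 3.96, 3.55 and 2.71 CPM in multiciliated cells and at most 0.15 CPM in secretory cells.

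The BBSome genes had ratios from 1.31 in *Bbs2* to 2.95 in *Bbs1*, with *Bbs5* at 2.80, *Bbs7* at 2.75, *Bbs9* at 2.54, *Bbs4* at 2.12 and *Ttc8* at 1.90. *Bbs5*, a subunit that binds phosphoinositides, had 47.2, 48.8, 47.8, 47.8, 46.5 and 46.2 CPM in multiciliated cells, within a span of 3 CPM, and 5.35 to 8.10 CPM in secretory cells. Of the chaperonin-like genes, *Bbs12* was at 1.52, *Bbs10* at 1.10 and *Mkks* at 0.47. The added 1 CPM lowered the ratio of genes with so few UMIs, and without it *Bbs12* was at 2.88, *Bbs10* at 1.84 and *Mkks* at 0.52. *Mkks* had 13.8, 11.5, 12.5, 12.5, 12.3 and 11.8 CPM in multiciliated cells and 8.48 to 8.79 CPM in secretory cells, a narrow gap without overlap. *Bbs10* had 2.14, 3.06, 2.24, 1.85, 3.03 and 3.59 CPM, against 0.363 to 1.08 CPM, from as few as 29 UMIs in a mouse. *Lztfl1*, a negative regulator of BBSome entry into cilia, had 185, 184, 185, 181, 211 and 196 CPM, against 35.6 to 42.7 CPM (log2 ratio 2.26).

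Between secretory and basal cells, the ranges over mice overlapped for 32 of the 36 genes. This order does not use that both cell types came from the same mice. Within mice, some of the 32 genes kept 1 direction, such as *Bbs1* (log2 ratios of secretory over basal cells 0.16 to 0.63) and *Bbs10* (-0.39 to -0.19). Others changed direction between mice. On unscaled CPM, *Dync2li1* was higher in secretory cells without overlap (10.4% of the 14744 genes tested in either cell type), and *Cluap1*, *Bbs12* and *Mkks* were higher in basal cells (19.9%). The log2 ratios of secretory over basal cells were 0.23, -0.35, -0.51 and -0.18 in that order.

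A further 20 genes of the same machinery, fixed by symbol and left out by the rule, showed the same order. Of the 19 that were tested, 18 were above secretory cells without overlap in all 6 mice, with a median log2 ratio of 2.36. The exception was *Dynlrb1*, a dynein light chain gene used by cytoplasmic dynein, with 189 to 213 CPM in multiciliated and 171 to 192 CPM in secretory cells. Its paralog *Dynlrb2*, which is also among the multiciliated markers, had 877, 729, 781, 872, 1142 and 937 CPM, against 4.32 to 12.9 CPM (log2 ratio 7.05).

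The multiciliated clusters differed among themselves. In cells pooled over mice, the fixed markers of early multiciliated cells (*Ccno*, *Deup1*, *Mcidas*, *Cdc20b* and *Foxn4*) summed to 988 CPM in Multiciliated2 and to between 10.9 and 23.3 CPM in the other 3 multiciliated clusters, and the 8 multiciliated markers summed to 3689 CPM in Multiciliated2 and 6633 CPM in Multiciliated3. Multiciliated1, with 1685 CPM of the multiciliated markers, also held 2754 CPM of secretory and 2178 CPM of basal markers, against 211 and 128 CPM in Multiciliated3. Multiciliated4 held 146 cells, between 6 and 52 per mouse, with a median of 10197 UMIs per cell and a median mitochondrial share of 1.29%. Over all 16 clusters, 18 of the transport genes were highest in Multiciliated3 and 13 in Multiciliated4. *Ift20* and *Ift22* were highest in Multiciliated2, *Bbs10* and *Ttc21b* in neuroendocrine cells, and *Mkks* in the 28 ionocytes. Without the few cells of Multiciliated4, Multiciliated3 was highest for 29 genes, and neuroendocrine cells for *Ift57*, *Bbs10*, *Bbs12* and *Ttc21b*. These outside values rest on few UMIs except for *Ift57*, with 8 for *Bbs10*, 11 for *Bbs12* and 34 for *Ttc21b* in neuroendocrine cells and 11 for *Mkks* in ionocytes. *Dync2h1* was at 36.9 CPM in Multiciliated4 and 180 CPM in Multiciliated3, whereas *Dync2li1* was at 422 and 237 CPM.

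**Figure D2:**
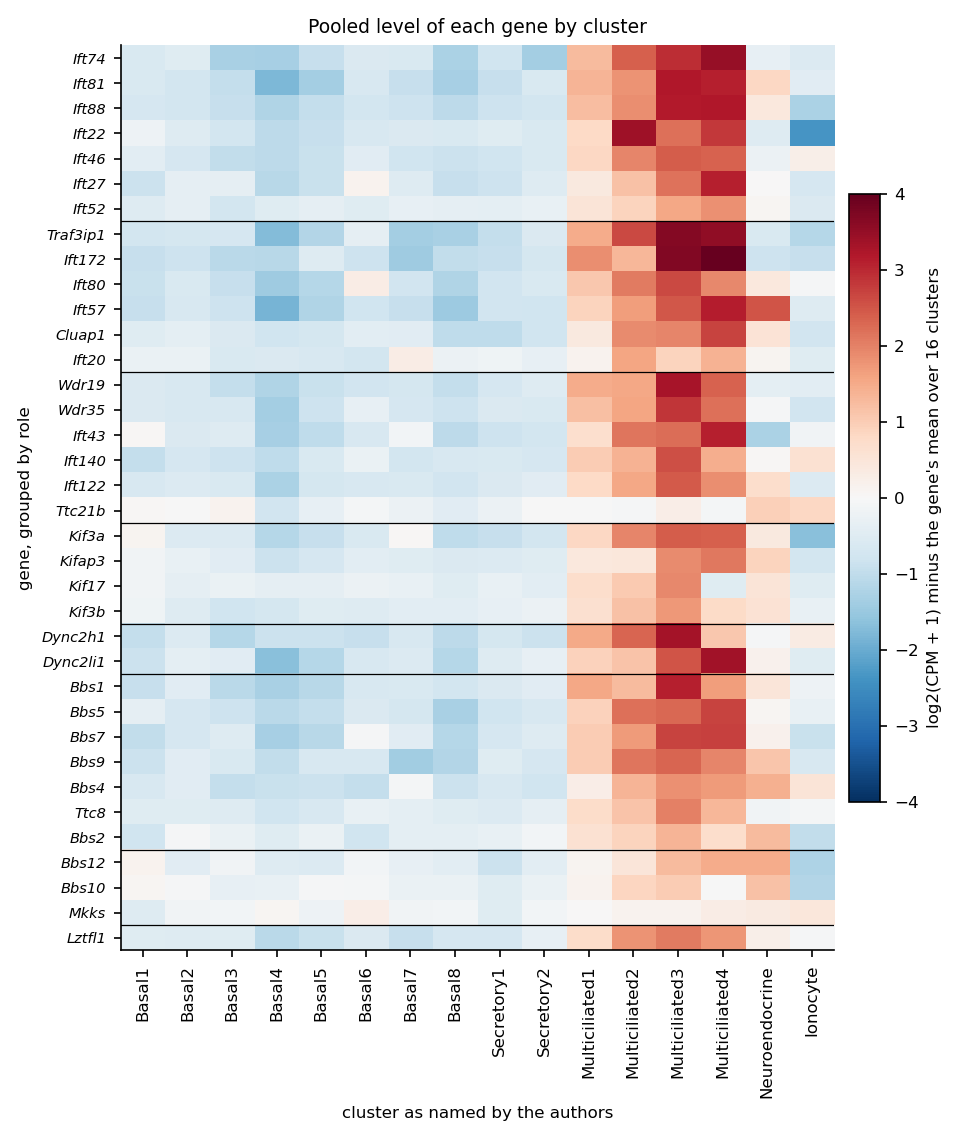
Pooled level of each gene in the 16 clusters, as log2(CPM + 1) minus the mean of the gene over clusters. The red block marks the multiciliated clusters, the row of *Ttc21b* is pale throughout, and *Ift57* is also high in neuroendocrine cells.

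Early and mature multiciliated cells were compared in all 6 mice, which had at least 55 cells in both Multiciliated2 and Multiciliated3. Ratios were taken within each mouse, whereas the counts without overlap compare the ranges over mice. For 26 of the 36 genes, every mouse was higher in Multiciliated3 than any mouse in Multiciliated2, against 35.0% of the 14206 genes tested. The reverse held for *Ift22* and *Ift20*, against 19.3% of genes. The ranges of the other 8 genes overlapped, although *Bbs4* and *Bbs5* were lower in Multiciliated2 within every mouse (highest log2 ratios -0.08 and -0.05). The median log2 ratio of Multiciliated2 over Multiciliated3 was -0.75 over the 36 genes and -0.23 over all genes tested. It was -0.71 for transition zone genes and -1.27 for axonemal dynein genes. With TMM scaling, which moved all of these ratios up by a median of 0.21, *Ift22* and *Ift20* stayed without overlap. The count higher in Multiciliated3 was then 22, without *Ift74*, *Kif3a*, *Bbs12* and *Lztfl1*. The shares of all genes above are for unscaled CPM, and none is given with TMM scaling. Multiciliated2 also held 3579 CPM of the secretory markers, against 211 CPM in Multiciliated3, and their part in the ratios was not tested.

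*Ift22* had 375, 394, 447, 426, 444 and 480 CPM in Multiciliated2 and 185, 216, 187, 183, 192 and 190 CPM in Multiciliated3 (log2 ratio 1.21). Every mouse had it at least 0.87 higher in the early cells on the log2 scale. *Ift20* had 282, 331, 358, 344, 350 and 404 CPM in Multiciliated2 and 208, 257, 225, 210, 229 and 218 CPM in Multiciliated3 (log2 ratio 0.64). Both genes were thus already at their highest cluster level in early cells. *Ift172* had the opposite order, with 64.4, 85.4, 77.2, 76.3, 105 and 77.0 CPM in Multiciliated2 and 437, 434, 377, 391, 398 and 441 CPM in Multiciliated3 (log2 ratio -2.34). *Wdr19* (-1.81), *Bbs1* (-1.81), *Ift81* (-1.44), *Dync2li1* (-1.41) and *Kifap3* (-1.40) followed. Genes of the same complex differed in this ratio. Within the IFT-B core the ratios ran from -1.44 in *Ift81* to 1.21 in *Ift22*. In IFT-A they ran from -1.81 in *Wdr19* to -0.16 in *Ift43*, and in the BBSome from -1.81 in *Bbs1* to -0.14 in *Bbs5*.

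**Figure D3:**
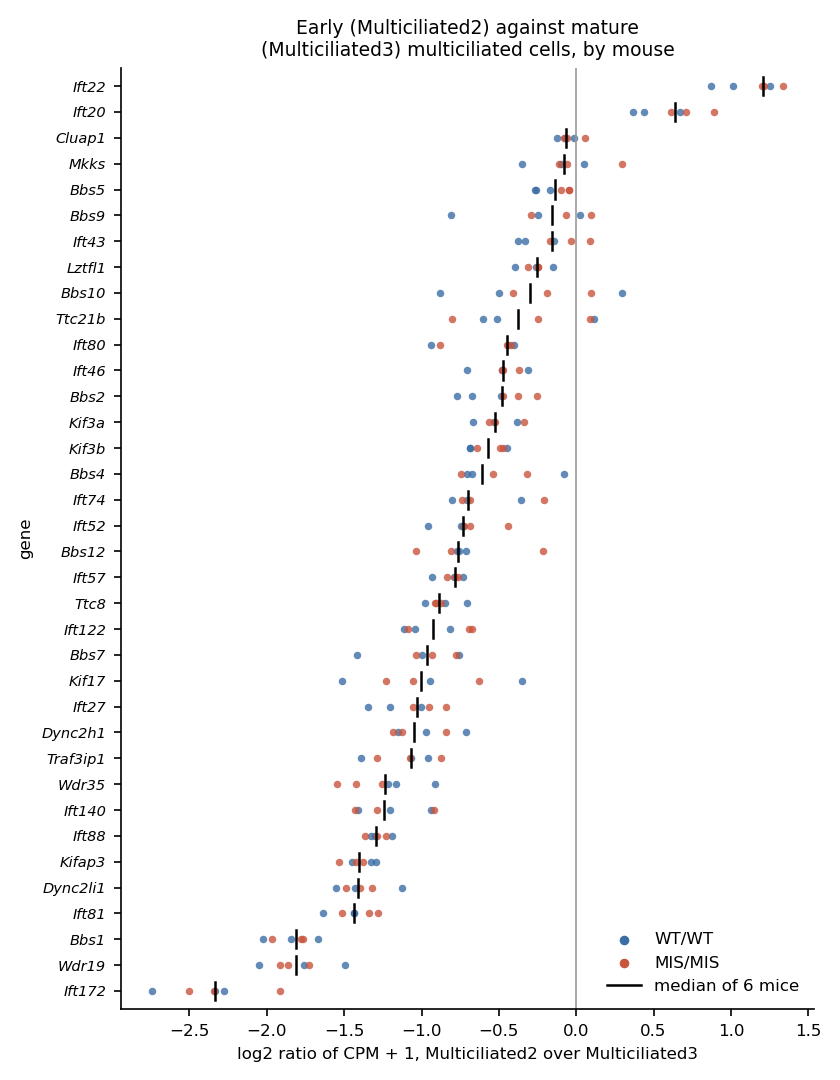
Log2 ratio of CPM + 1 in Multiciliated2 over Multiciliated3 for each gene, 1 point per mouse colored by genotype, with the median of 6 mice as a bar. *Ift22* and *Ift20* lie right of 0 in all 6 mice, and *Ift172* lies furthest left.

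*Ift57* was also high in neuroendocrine cells, at 270 CPM in 163 pooled cells, against 24.7 to 28.7 CPM per mouse in secretory and 17.0 to 27.4 CPM in basal cells. Mouse MT1383 contributed 108 of these cells and 310 *Ift57* UMIs, or 276 CPM (95% exact Poisson interval 246.5 to 309, for counting error only). The other 5 mice together gave 228 UMIs, or 261 CPM (228.5 to 297.5), so the interval without mouse MT1383 overlapped that of the mouse. The multiciliated markers summed to 113 CPM in neuroendocrine cells. *Ift57* led the 36 genes in its pooled log2 ratio over basal cells (3.49), and *Bbs4* followed at 2.15. With fewer than 20 cells in each of the other mice, no spread between mice was computed.

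The genotypes were compared to ask whether expression of the transport genes differed with the missense allele of the assembly factor. No transport gene passed the threshold in any cell type. In multiciliated cells, 0 of 36 genes were called at an adjusted p under 0.05 by limma's voom test, against 1 of 14206 genes tested, or 0.00704%. In secretory cells 0 of 35 were called (0.00735% of all genes tested), and in basal cells 0 of 35 (0% of all genes tested). At an unadjusted p under 0.05 there were 2 transport genes in multiciliated cells (4.32% of all genes tested), 0 in secretory cells (1.90%) and 0 in basal cells (2.29%), so the count in multiciliated cells was close to the background. The p-values measure the spread between cultures of different mice.

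In multiciliated cells, 29 of the 36 log2 fold changes of *MIS/MIS* over *WT/WT* were above 0, against 51.5% of all genes tested, and their median was 0.11, against 0.0066 over all genes. Single values ranged from -0.06 in *Mkks* to 0.45 in *Kif17*. The 3 *MIS/MIS* mice were all above the 3 *WT/WT* mice for 7 genes, namely *Ift80*, *Traf3ip1*, *Wdr19*, *Wdr35*, *Kif17*, *Dync2h1* and *Bbs1* (6.84% of all genes tested). The reverse held for 0 genes (3.19% of all genes tested). The study's own list of cilium assembly genes, chosen on these libraries, shares *Ift172*, *Ift74*, *Ift43*, *Ift81* and *Traf3ip1*, so neither list is independent evidence for the other. By role, the median log2 fold change was 0.10 in the IFT-B core, 0.11 in peripheral IFT-B, 0.22 in IFT-A, 0.07 in kinesin-2, 0.17 in dynein-2, 0.09 in the BBSome and 0.10 in the chaperonin-like genes, and *Lztfl1* was at 0.06. All 6 genes of IFT-A were above 0. In the same sums, the multiciliated markers were at 4343 to 4448 CPM in *WT/WT* and 4607 to 5580 CPM in *MIS/MIS* mice. The 5 basal markers were at 869 to 1153 CPM and 547 to 719 CPM. Neither list overlapped between the genotypes. The early markers (213 to 363 CPM in *WT/WT* and 136 to 268 CPM in *MIS/MIS* mice) did overlap. So did the secretory markers (773 to 1831 and 826 to 2401 CPM). The multiciliated list includes *Dnah5* and *Ccdc39*, which the paper reports as increased in *MIS/MIS* cells. The part of these lists in the fold changes was not tested.

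The lowest p belonged to *Bbs1*, a BBSome subunit that recognizes cargo and binds the GTPase that recruits the complex to membranes. It had 30.5, 24.3, 30.4, 33.3, 41.3 and 34.7 CPM, with means of 28.4 ± 3.52 for *WT/WT* and 36.4 ± 4.32 for *MIS/MIS* (SD, 3 mice per genotype). All *MIS/MIS* mice were above all *WT/WT* mice by a small margin. Its log2 fold change was 0.34 (standard error 0.13, limma voom adjusted p = 0.896). *Wdr19* had 49.98, 49.0, 50.5, 52.9, 68.3 and 59.8 CPM, with means of 49.8 ± 0.776 and 60.3 ± 7.72 (SD, 3 mice per genotype). The *WT/WT* mice were close together and the *MIS/MIS* mice spread upward from 52.9 CPM, for a log2 fold change of 0.24 (standard error 0.10, limma voom adjusted p = 0.896). *Traf3ip1*, with the values given above, came next (log2 fold change 0.23, standard error 0.10, limma voom adjusted p = 0.896).

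The median changed with mouse MT1306 and with the multiciliated cells that were summed. The median deviation of the 36 genes from the *WT/WT* mean was 0.33 in mouse MT1306, 0.02 in mouse MT1301 and 0.04 in mouse MT1383, and between -0.06 and 0.02 in the *WT/WT* mice. Multiciliated3 made up 70.2% of the multiciliated cells of mouse MT1306, and 58.3% and 55.0% in mice MT1301 and MT1383, against 52.1%, 43.0% and 58.9% in *WT/WT* mice 1, 2 and 3. Mouse MT1306 also had the fewest early cells (8.45%) and 136 CPM of the early markers, against 213 to 363 CPM in the other mice. Leaving this mouse out gave a median of 0.016, with 23 of 36 genes above 0. In Multiciliated3 cells alone the median was 0.015, with 21 genes above 0 and 0 without overlap. With the 4 clusters drawn to equal shares in every mouse it was 0.010, and *Bbs1* was the 1 gene without overlap. The share of all genes without overlap is given for all multiciliated cells alone. Other selections kept the median, which was 0.12 without Multiciliated1 cells (28 genes above 0) and 0.14 with cells of at most 7500 genes (29 genes above 0). *Bbs1* had a log2 fold change of 0.16 in Multiciliated3 alone (standard error 0.09) and 0.25 without mouse MT1306, and *Wdr19* had 0.09 (standard error 0.07) and 0.15. Across the 36 genes, the log2 fold change between genotypes and the log2 ratio of Multiciliated3 over Multiciliated2 had a Pearson r of 0.58 and a Spearman rho of 0.603, and 0.315 and 0.337 when the fold change was taken within Multiciliated3. These values describe genes of the same libraries, in part from the same counts, and are not replicates. No such value is given over all genes. The part of the cluster shares, and of mouse MT1306 itself, in the fold changes was not tested.

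**Figure D4:**
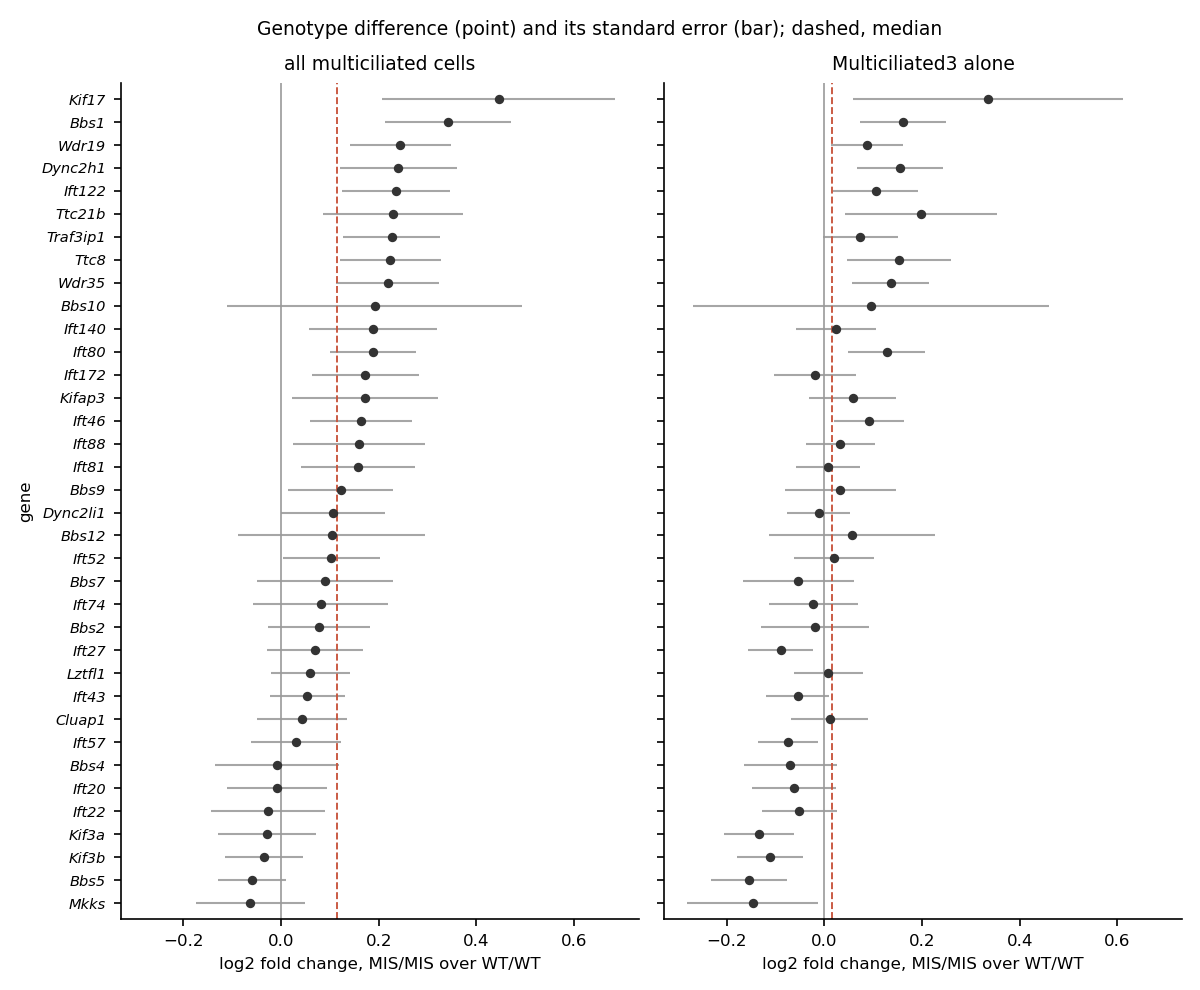
Log2 fold change of *MIS/MIS* over *WT/WT* (points, with standard errors from limma as bars) for the 36 genes in all multiciliated cells (left) and in Multiciliated3 alone (right), with the median dashed. The median lies at 0.11 on the left and 0.015 on the right.

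**Figure D5:**
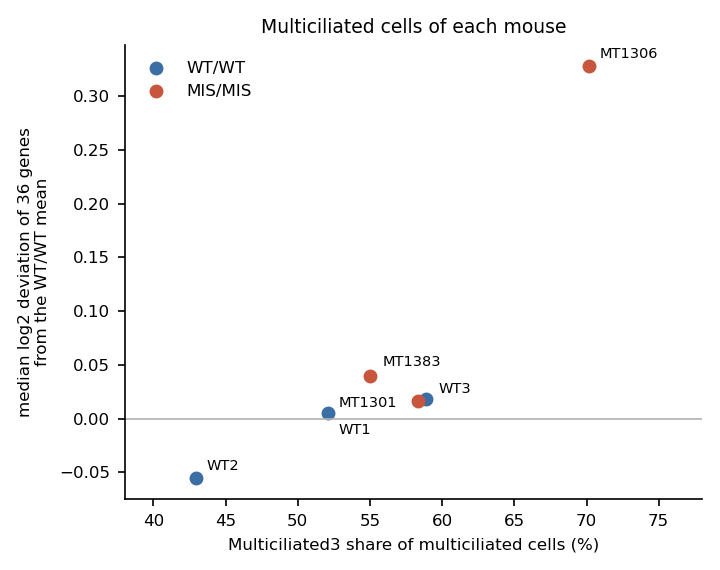
Median log2 deviation of the 36 genes from the *WT/WT* mean in multiciliated cells of each mouse, against the share of Multiciliated3 among its multiciliated cells in percent. Mouse MT1306 stands apart at 0.33 and 70.2%, and the other 5 mice lie between -0.06 and 0.04.

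In secretory cells, 24 of 35 log2 fold changes were above 0 (48.4% of all genes tested), with a median of 0.05. All *MIS/MIS* mice were above all *WT/WT* mice for 2 transport genes, *Ift43* and *Ift172*, and the reverse held for 0. No share of all genes is given for these orders in secretory cells, so the counts have no background. The 3 lowest p-values belonged to *Ift43*, *Ift20* and *Ift172*. *Ift43* had 40.4, 39.5, 39.5, 42.5, 43.2 and 43.2 CPM, without overlap between the genotypes, for a log2 fold change of 0.11 (standard error 0.06). *Ift20* had 98.2, 108, 105, 97.9, 101 and 92.2 CPM (log2 fold change -0.10, standard error 0.07), and the genotypes overlapped. *Ift172* had 16.4, 16.6, 14.9, 16.8, 16.7 and 20.1 CPM (log2 fold change 0.15, standard error 0.11), with the *MIS/MIS* mice just above the *WT/WT* mice, and was at 0.05 without mouse MT1383. All 3 had an adjusted p of 1.00 from limma's voom test.

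In basal cells, 31 of 35 log2 fold changes were above 0 (48.0% of all genes tested), with a median of 0.11. The basal cells of the mice came from different clusters. Basal4 held 1048 of the 1834 basal cells of *WT/WT* mouse 1 and between 1 and 167 cells of each other mouse, and its pooled *Traf3ip1* level was 7.28 CPM, against 15.5 to 16.3 CPM in Basal1 to Basal3. Without Basal4 cells, a choice made after these values were seen, the median was 0.045, with 28 of 35 genes above 0. The 3 lowest p-values belonged to *Ift122*, *Bbs7* and *Traf3ip1*. *Ift122*, an IFT-A subunit, had 7.01, 8.46, 9.02, 9.59, 9.12 and 10.5 CPM (log2 fold change 0.22, standard error 0.12). *Bbs7*, a BBSome subunit, had 3.63, 4.96, 4.59, 5.52, 5.23 and 5.07 CPM (log2 fold change 0.23, standard error 0.15). Neither gene overlapped between the genotypes. In basal cells, all *MIS/MIS* mice were above all *WT/WT* mice for 5 transport genes, these included. The reverse held for 1 gene, *Mkks*. No share of all genes is given for these orders in basal cells, so the counts have no background. *Traf3ip1* had 9.41, 15.2, 13.8, 14.7, 14.985 and 16.5 CPM (log2 fold change 0.25, standard error 0.17), and was 0.08 without *WT/WT* mouse 1, which was low. Without Basal4 cells, the log2 fold changes were 0.12 for *Ift122*, 0.11 for *Bbs7* and 0.13 for *Traf3ip1*. All 3 had an adjusted p of 1.00 from limma's voom test.

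Mouse MT1383 had the highest median deviation from *WT/WT* in secretory (0.15) and basal (0.23) cells. Leaving it out gave medians of -0.01 for secretory and 0.04 for basal sums. The multiciliated markers were also highest in the secretory and basal cells of this mouse (63.4 and 52.9 CPM, against at most 42.3 and 34.4 CPM in the other mice), and their part in the difference was not tested.

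Of the further 19 pathway genes tested in multiciliated cells, 0 passed in either direction, and 13 log2 fold changes were above 0, with a median of 0.10. The 3 lowest p-values belonged to *Hspb11*, *Dynlrb2* and *Ttc30a1*. *Hspb11*, which encodes the IFT-B subunit IFT25, had 140, 149, 154, 162, 175 and 186 CPM, so that the genotypes did not overlap, for a log2 fold change of 0.21 (standard error 0.08, limma voom adjusted p = 0.896). *Dynlrb2*, with the values given above, was at 0.28 (standard error 0.13) and *Ttc30a1*, an IFT-B gene with near-identical copies among which UMIs may be split, at 0.21 (standard error 0.11). The medians of the transition zone and axonemal dynein genes were 0.16 and 0.24 in the same fit, with 17 of 18 genes above 0 in each. Of all genes tested, 51.5% were above 0. The values of these lists and of the further pathway genes are given only for all multiciliated cells and all mice. None is given for Multiciliated3 alone or without mouse MT1306.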

How the data were processed

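The authors deposited a table of UMI counts of each gene in each cell, and the cluster given to every cell, from droplet 3′ libraries processed with Cell Ranger (7.1.0 and mm10 per the labels, and another version in the methods), and filtered and clustered in Seurat. All values were whole numbers, and the totals of all 23871 cells matched the cell table. Because the tab between values was mistyped, the columns could not be registered as counts, and the planned count model gave way to limma 3.58.1 in R 4.3.3 with voom weights. Cell names of *MIS/MIS* mice hold animal numbers absent from the sample titles, and these libraries were used as replicates of their genotype. No cell belonged to an unmapped library (0 columns).

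Counts were summed per mouse over the authors' multiciliated, secretory or basal cells. A gene was tested where 3 or more mice reached the equivalent of 10 counts at the median library size and its total reached 15. TMM factors used trims of 0.3 and 0.05. Adjusted p-values are Benjamini-Hochberg values over all genes tested, with a threshold of 0.05. Ratios between cell types used log2(CPM + 1). No doublet caller was run. Alternatives changed the scaling, low-count filter, pseudocount, cells included and mice included. Python 3.11.15 was used for the remaining steps.

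The genes, lists and tests were chosen with earlier results of these data known. Genes given per mouse were, per role, that with the highest mean in multiciliated cells, the 4 highest and 4 lowest ratios to secretory cells, and per cell type the 3 lowest p-values. *Ift22*, *Ift57*, *Kif17*, *Ttc21a* and *Dynlrb1* were added after their values were seen. Positions come from GRCm38, the build named mm10. *Cluap1*, *Kif17* and *Mkks* overlap another annotated coding gene on their strand, so that UMIs may be shared.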

Additional observations from a re-analysis of the deposited data

How the results depend on the processing

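No paired analysis was possible because cell names of *MIS/MIS* mice hold animal numbers that no title gives, and no number is common to both genotypes. The planned negative binomial alternative was not run, because the columns could not be registered as counts, although their values are whole numbers. No transport gene was called in any alternative of the 3 cell types. The median ratio of multiciliated over secretory cells was 2.95 with Multiciliated3 alone, 2.84 without Multiciliated1 cells, 2.79 with a pseudocount of 0.1 and 2.27 with TMM scaling, and lay between 2.552 and 2.635 when single mice were left out. The count of 35 genes above secretory cells was 35 in each alternative, TMM scaling included, which was added after seeing the data. The share of all genes (45.1%) is given for the main setting alone. The median log2 fold change with each mouse left out ranged from 0.016 to 0.18 in multiciliated, -0.014 to 0.12 in secretory and 0.037 to 0.16 in basal cells. Without mouse MT1301 it was 0.18, 0.12 and 0.16 in that order, and 7 genes of the multiciliated and 3 of the secretory sums had an unadjusted p under 0.05, against 9.24% and 8.22% of all genes tested. The 7 genes without overlap of the genotypes in multiciliated cells became 3 without Multiciliated1 cells, 10 with cells of at most 7500 genes and 5 with TMM scaling. They became 7 to 14 with each mouse left out, where fewer mice have to be separated. These counts were also chosen after seeing the data. The share of all genes is given for the main sums alone (6.84%), so the counts under the alternatives have no background to be read against. All 93 alternative values of the 9 lowest p-values kept their direction, with adjusted p from 0.50 to 1.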
